A study of Mus musculus with 4 samples.

Results

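Wild-type adipocyte progenitor cells are described here by the genes whose RNA was measurable in them. The cells were sorted by flow cytometry from subcutaneous fat of untreated male FVB mice, 4 weeks old, and lysed without culture, so that the RNA is that of cells taken from the tissue. The study hybridised 4 samples, 2 from wild-type mice and 2 from Adamts1 transgenic mice, to Agilent arrays of 1 colour, with 1 sample an array, and the 2 wild-type arrays alone are used. The sort gate, the exact fat pad, and whether each sample came from 1 mouse or from a pool are not given in the labels. Genes were chosen by the scanner's own flag: a gene was counted when the software marked a probe for it well above background on each of the wild-type arrays, which held for 12238 of 19643 genes with a proper symbol (62.3%) and for 24493 of 55681 probes (44.0%). The flags rest on the same signals as the levels, and every level below is a description with no test. Each count of list genes above background is to be read against the 62.3% of all genes. A level is the log2 signal of a probe minus the 75th percentile of that array's signals, so that 0 marks the 75th percentile and each unit is a 2-fold step.

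Adipocyte progenitors are mesenchymal cells that lie along blood vessels and in the connective tissue sheets of fat. They are sorted by surface proteins such as Pdgfra, Cd34 and Ly6a (Sca-1), after endothelial and blood cells are removed by their own antigens. A reserve population marked by Dpp4 and Pi16 gives rise to committed preadipocytes, which turn on the nuclear receptor Pparg and then the genes of lipid storage. The same cells make much of the collagen-rich matrix of fat.

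Each level rests on a 60-base probe. The first 30 bases are shown for the probes that read the 4 progenitor markers and Adamts1, the gene of the study's transgene. Positions are those of the whole probe on mm9, per the array files.
Pdgfra, chr5:75593888-75593947, plus strand: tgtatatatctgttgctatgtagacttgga
Cd34, chr1:196787392-196787451, plus strand: ccagagatgagaggattgggtgtattctct
Ly6a, chr15:74825553-74825612, minus strand: tatgagttatagaagctccaaggtgggagt
Dcn, chr10:96980233-96980292, plus strand: aacaccttcagatgtgtctatgtgcgttct
Adamts1, chr16:85795044-85795103, minus strand: gaaagagctcctgatttcttcttacaccat
None of these 5 probes holds a 16-base run that occurs in probes of at least 5 names, a property that matters for some of the brightest signals below. Whether each lies in a coding exon or an untranslated region was not analysed here.

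All 4 markers were among the brighter signals on both arrays. Pdgfra, the receptor for platelet-derived growth factor that defines fibroblast-like progenitors, read 5.23 on array 1 and 5.32 on array 2. Cd34, a sialomucin of stem and progenitor cells, read 8.76 and 8.59 with the probe shown, and its second probe read 3.21 and 3.37, so that the choice of probe moves its level far more than the choice of array. Ly6a, the antigen Sca-1, read 8.22 and 8.02. Dcn, the collagen-binding proteoglycan decorin, read 10.22 and 9.79, which placed it at rank 9 among all genes. On this scale the median gene above background was at 1.28 and the 90th percentile at 4.71, so each marker lay above the 90th percentile on both arrays, as the label of the cells would have it.

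Precision depended on the signal. Over the 12238 genes the Pearson correlation between the arrays was 0.989, a value across genes, which are not independent replicates, and the SD of the difference was 0.40. With genes in 5 equal groups by level, the SD was 0.64 in the lowest group, from -4.03 to -1.17, and 0.23 in the fourth, from 1.96 to 3.54. In the 5th, from 3.54 to 10.22, it was 0.32, and that group holds Tmem91, with a difference of 10.94. An SD scaled from the interquartile range, which single outliers move little, was 0.44, 0.18 and 0.19 in those groups and 0.24 over all genes. Array 1 marked 47.0% of its spots well above background and array 2 marked 55.5%, and 5805 probes passed on array 2 alone against 1030 on array 1 alone. The faintest probe marked above background lay at -3.60 on array 1 and -4.94 on array 2, with the brightest unmarked one at -3.15 and -4.49. Absence of a flag on array 1 therefore covers levels that array 2 could still read, and a gene without a flag is described as not well above background, or as failing the flag, and not as absent. The number of arrays, 2, limits all of these values, and the labels do not say that the samples came from separate animals.

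**Figure D1:**
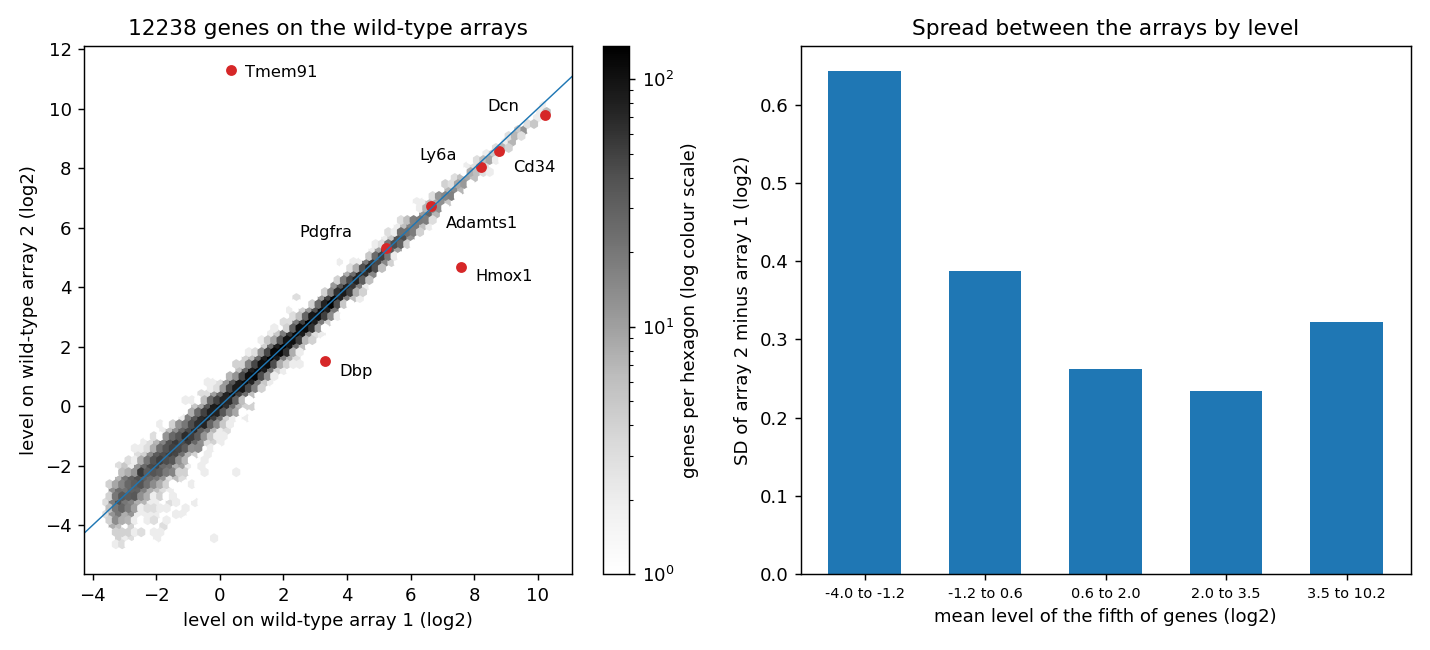
Left, the level of each of 12238 genes on wild-type array 1 (x axis, log2) and array 2 (y axis, log2), with shading for the number of genes and a line of equal levels; the 4 markers and Adamts1 lie close to the line, and Tmem91, Hmox1 and Dbp lie far from it. Right, the SD of the difference between the arrays in 5 equal groups of genes by mean level, 0.64 in the lowest, 0.23 in the fourth and 0.32 in the 5th, which holds Tmem91.

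The wider set of progenitor antigens was measurable throughout: 14 of 14 genes were above background on both arrays, and their median percentile among all measurable genes, where the median gene is at 50, was 89.5. Thy1, the surface glycoprotein CD90, read 6.89 and 6.68. Cd81, a tetraspanin, read 7.10 and 6.89, and the intermediate filament vimentin (Vim) read 7.93 and 7.78. The 4 lowest members were Cd24a at 1.62 and 1.5, Cd44 at 1.87 and 1.99 with a probe that holds a run shared by 20 names, Eng at 2.70 and 2.72 and Pdgfrb at 2.65 and 2.90. Cd24a marks a subset of early progenitors, and Pdgfrb is the receptor most often used for mural cells. Ranks of signals order probes, not molecules, because probes bind with different strength: among 3276 genes with several probes above background, the brightest and faintest probe of a gene lay a median of 2.0 apart, and 31.7% of them more than 3.

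Genes of the Dpp4-positive reserve population gave the strongest signals of the 3 progenitor states listed. All 16 were above background, with a median percentile of 95.2, and 12 of the 16 lay above the 90th percentile, where 10% of genes lie by construction. Pi16, a secreted peptidase inhibitor that marks this population, read 10.23 and 9.99, at rank 5 among all genes. Cd248 (endosialin), a surface glycoprotein of mesenchymal cells, read 9.17 and 9.01, and the fibronectin gene Fn1 read 9.62 and 9.35. Dpp4 itself, the peptidase CD26, read 4.99 and 4.82, and Procr, the protein C receptor, read 6.71 and 6.63. The 2 lowest members were Dact2 at 0.91 and 2.71 and the ligand Wnt2 at -0.08 and 0.11. Dact2 is the member on which the arrays differed most.

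Committed preadipocyte genes were also present, with 12 of 13 above background and a median percentile of 80.5. Lpl, the lipase that frees fatty acids from lipoproteins, read 8.07 and 8.03 with its brighter probe, against about 5 with the other. Apoe read 7.38 and 7.54, and the basement membrane collagens Col4a1 and Col4a2 read 5.90 and 6.18, and 5.30 and 5.79. Pparg, the receptor that drives fat cell formation, was in the middle of the range at 1.98 and 1.96. Fabp4, the fatty acid binding protein of fat cells, read 4.24 and 4.48. Dlk1 (Pref-1), long used as a preadipocyte marker, was the exception: both of its probes failed the flag on array 1, where its brighter probe read -3.54, and that probe read -2.98 on array 2.

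Of the 10 genes of the regulatory, F3-positive progenitor population all 10 were above background, with a median percentile of 77.7. Mgp, an inhibitor of calcification, read 4.78 and 5.35. Gdf10, a ligand of the TGF-beta family, read 4.94 and 5.19, and F3, the tissue factor CD142, read 3.55 and 4.61. Vit, a secreted matrix protein, read 2.66 and 3.23, Bgn read 3.58 and 3.93, and Clec11a read 3.64 and 3.86. Igfbp3 and Fmo2 were lower, at 1.21 and 1.51, and at 1.11 and 1.39. The homeobox gene Meox2 read 2.21 and 2.14, and Meox1, the lowest, read -1.83 and -1.50. Of the 10, 9 were higher on array 2, with a median difference of 0.32, where 5563 of 12238 genes (45.5%) were higher on that array. The count was 9 with quantile normalization, where 51.0% of all genes were higher on array 2, 10 with a median shift, where 69.4% were, and 10 with normexp background correction, where 47.9% were. The labels name no difference between the samples, and 2 arrays allow no test of this one.

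Transcription factors of early fat cell formation were mostly measurable. Of 23 listed factors 21 were above background, with a median percentile of 60.4. Cebpd and Cebpb, which act first in differentiation, read 8.10 and 8.05, and 5.74 and 5.63. The Kruppel-like factors Klf4 and Klf2 read 7.91 and 7.75, and 5.61 and 5.17. Ebf2, a factor of committed progenitors, read 5.25 and 5.18, and Zfp423, which marks preadipocytes, read 1.45 and 1.18. Cebpa, the partner of Pparg in late differentiation, read 1.05 and 1.03. The 2 lowest were Klf15 at -2.19 and -2.64 and Rxra at -2.20 and -1.98. Gata2 and Gata3, which hold preadipocytes back from differentiation, were not well above background on either array.

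Genes of the finished fat cell passed the flag about as often as genes at large. Of 19 listed, 12 were above background on both arrays (63.2%, against 62.3% of all genes), 5 on 1 array and 2 on neither, and the 12 had a median percentile of 43.3. The highest were enzymes of lipid synthesis, Acaca and then Scd1, which read 2.54 and 2.37, with Car3, a carbonic anhydrase abundant in fat cells, at 1.69 and 2.50 and Dgat2 at 2.0 and 1.60. Adipoq, which encodes adiponectin, read -1.88 and -1.17. The lipid droplet gene Plin1 read -2.77 and -1.92, and Cfd (adipsin) read -2.74 and -3.98. Lep and Pck1 failed on both arrays, and Cidec, Retn, Lipe, Acvr1c and Adrb3 failed on 1. Because RNA was pooled over many cells, fewer fat cells in the sort and less of this RNA per cell cannot be told apart. Of the brown and beige fat genes 7 of 12 were above background (58.3%), with a median percentile of 18.7: Cox7a1 read 2.47 and 1.92, Ppara 0.85 and 0.63, Tmem26 -1.60 and -1.01, Dio2 -1.75 and -1.84, Cidea -2.21 and -3.67, and Prdm16 -3.28 and -2.85. The 7th, Tnfrsf9, read 1.61 and 1.48 with a probe whose sequence is shared with many names, and its other probe failed. Ucp1, the uncoupling protein of brown fat, was not well above background on either array, nor were Otop1, Ppargc1a and Elovl3, and Zic1 failed on 1 array.

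**Figure D2:**
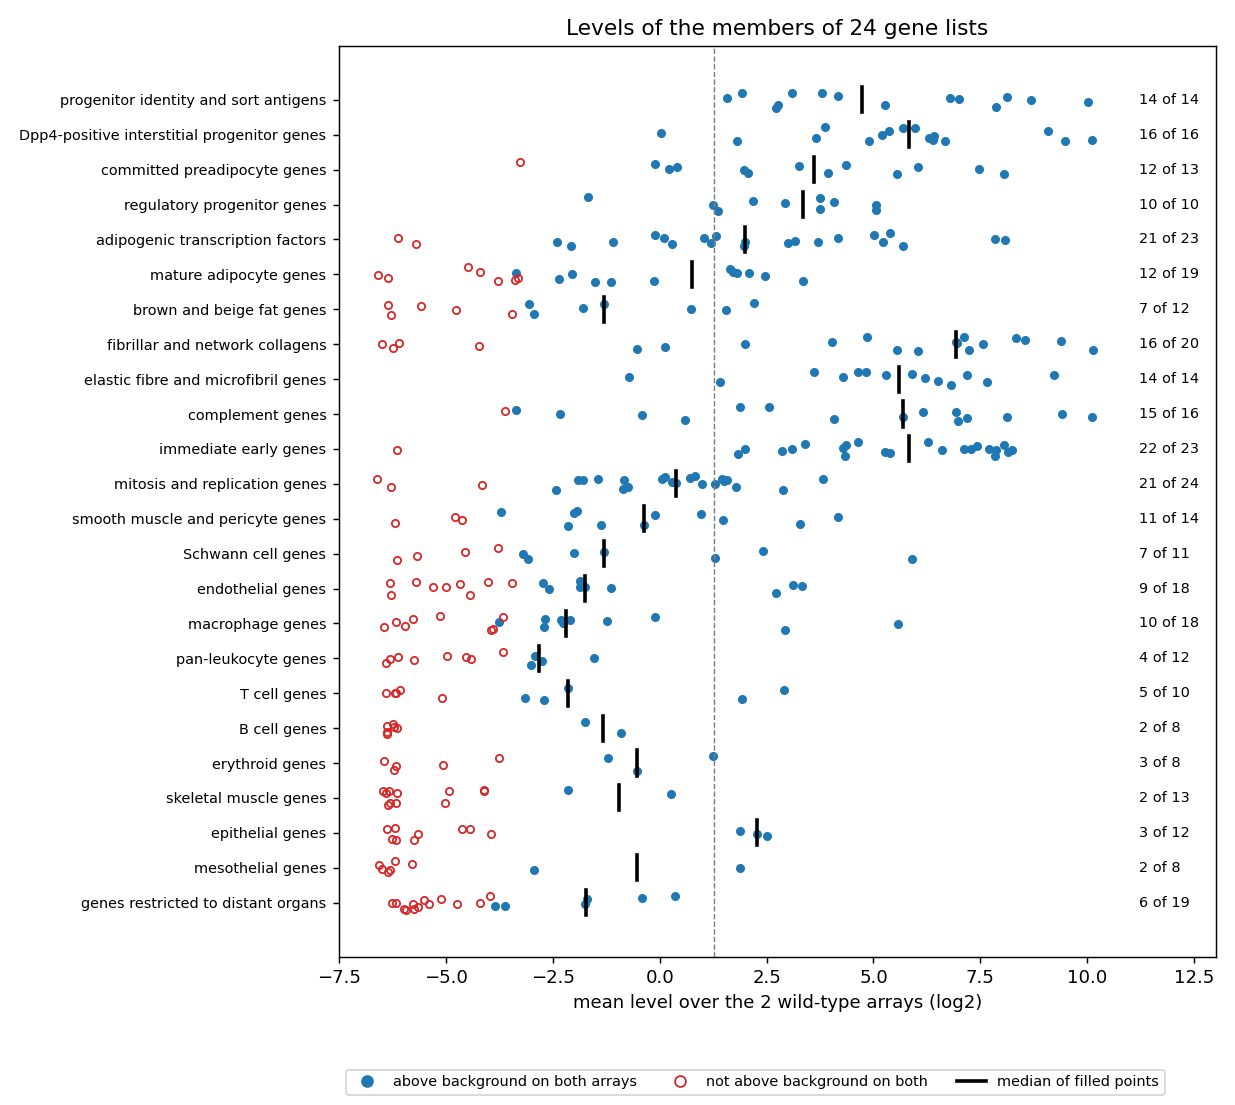
Mean level over the 2 wild-type arrays (x axis, log2) of each member of 24 gene lists (rows). Filled points were well above background on both arrays, open points were not and have no reliable order, the bar is the median of the filled points, the dashed line is the median of all measurable genes at 1.28, and the number at the right counts filled points; all 14 antigens and all 16 Dpp4-positive genes are filled, against 4 of 12 pan-leukocyte genes.

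Matrix genes supplied many of the brightest signals. Of 20 listed collagens 16 were above background, with a median percentile of 97.6, and 12 lay above the 90th percentile. The chains of the main fibrils were bright: Col1a2 read 10.33 and 9.95, Col3a1 read 9.54 and 9.21, and Col1a1 read 8.48 and 8.18. Col6a1, a chain of the beaded filaments of fat, read 8.56 and 8.51. The lowest 2 above background were Col15a1 at -0.04 and 0.30 and Col8a1 at -0.27 and -0.80. The cartilage collagens Col2a1, Col10a1 and Col11a1 were not well above background on either array, and Col9a1 failed on 1. No cartilage chain of the list was thus read on both arrays.

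The proteins that bind, cross-link and shape collagen followed. Of 13 small leucine-rich proteoglycans, which coat collagen fibrils, 12 were above background. Dcn, Ogn and Lum were the brightest, Ogn at 8.24 and 8.07 and Lum at 8.04 and 7.81, and Podn read 3.72 and 4.81. Fmod and Chad were the lowest, at -1.71 and -1.82, and at -2.64 and -3.24, and Kera, a proteoglycan of the cornea, failed on 1 array. All 16 collagen processing genes were above background, with a median percentile of 95.4. Pcolce, the enhancer of procollagen cleavage, read 9.46 and 9.22, and the cross-linking oxidase Loxl1 read 8.13 and 8.22. Adamts2 and Bmp1, the proteases that trim procollagen ends, read 7.97 and 7.91, and 7.96 and 7.81. The lowest 2 were Loxl3 at 2.08 and 1.86 and the lysyl hydroxylase Plod2 at -0.16 and 0.08. Loxl2 differed between the arrays, at 6.79 and 7.84.

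Elastic fibre genes were all above background, 14 of 14, with a median percentile of 94.2. The microfibril genes Mfap5, Fbn1 and Mfap2 led at 9.39 and 9.06, 7.65 and 7.65, and 7.23 and 7.13, and elastin itself (Eln) read 3.45 and 3.76. The 2 lowest were Fbn2, the fibrillin of embryonic tissue, at 1.56 and 1.23 with a shared-run probe, and Emilin1 at -0.65 and -0.77. Among 16 matricellular and adhesive proteins 14 were above background. Sparc, which binds collagen and calcium, read 10.25 and 9.92 with its brighter probe, while its other probe had a mean of 6.40. The basement membrane protein Nid1 read 8.22 and 8.12. Thbs1, at 0.99 and 1.62, was the lowest, and the injury-associated genes Tnc and Spp1 were not well above background on either array.

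Adamts1, the secreted metalloprotease whose transgene the rest of the study concerns, was among the bright genes of wild-type cells. It read 6.65 and 6.73, with 1 probe, at the 97.2 percentile. The arrays differed by 0.07 for it, less than the spread of the 5th group of levels, to which it belongs. That group, which holds the outlying Tmem91, had an SD of 0.32, and 0.19 when scaled from the interquartile range. Of 17 listed matrix proteases and inhibitors 15 were above background. Timp2, an inhibitor of metalloproteases, had the highest mean signal over the 2 arrays, at 10.38 and 10.07, although its second probe was lower, with a mean of 7.25, and Tmem91 read higher on array 2. The gelatinase Mmp2 read 7.32 and 7.59, and Mmp23 read 5.90 and 5.81. The related proteases Adamts15, Adamts5 and Adamts4 read 4.04 and 3.83, 3.98 and 3.29, and 2.20 and 3.13. Mmp9 was not well above background on either array, and Timp4 failed on 1. Of the lecticans, the large proteoglycans that ADAMTS proteases cleave, versican (Vcan) read 3.91 on each array. Aggrecan (Acan) and brevican (Bcan) failed on 1 array and neurocan (Ncan) on both. The hyaluronan synthases Has1 and Has2 read 6.99 and 6.90, and 3.68 and 4.17, while Has3 failed on both arrays. Hyal2, Hyal1 and Hapln3 read 2.80 and 2.87, -0.27 and 0.01, and -1.39 and -1.69, and Hapln1 failed on both arrays.

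Signalling genes were spread over the whole range of levels. Of 25 growth factor genes 21 were above background. The receptors Fgfr1 and Egfr read 6.46 and 6.78, and 6.13 and 6.29, and the growth hormone receptor Ghr read 2.71 and 2.93. Igf1, a growth factor that drives preadipocyte growth, read 4.14 and 4.62, with all 5 of its probes above background. Igf2, the fetal growth factor, was not well above background on either array, and Hgf, Fgf1 and Pdgfb failed on 1. Lepr read 2.41 and 1.27 with 1 of its 4 probes, and the other 3 were not above background on both arrays. Of the 8 IGF binding proteins Igfbp6 and Igfbp5 were bright, at 9.57 and 9.31 and at 8.02 and 7.99, Igfbp4 read 3.96 and 3.67, and Igfbp7 read -2.36 and -1.81. Igfbp1 and Igfbp2 failed on both arrays and Igfals on 1.

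In the Wnt pathway 21 of 27 genes were above background, and the secreted antagonists led. Sfrp4 and Sfrp2, decoys for Wnt ligands, read 6.52 and 6.40, and 6.47 and 6.38. The receptors Fzd4 and Fzd2 read 3.82 and 3.78, and 3.36 and 3.40. The lowest were Fzd8 at -0.20 and -0.23 and Fzd5 at -2.33 and -2.39. Wnt10b, which blocks fat cell formation, read 1.79 and 1.67. The other antagonists were uneven: Dkk2, Dkk3 and Sfrp1 were above background, and Sfrp5, Frzb, Dkk1 and Wif1 were not on either array. Wnt4 failed on both arrays and Wnt2b on 1.

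Of 26 BMP and TGF-beta genes 23 were above background. The receptors Tgfbr2 and Tgfbr3 read 6.98 and 7.10, and 5.60 and 5.79. Fst, the activin trap follistatin, read 5.59 and 6.17. Bmp7 read 5.27 and 5.12 and Bmp4, which commits cells to the fat lineage, read 4.21 and 3.83. The target gene Id3 read 6.39 and 6.24 while Id1 read -0.70 and -1.03, so targets of one pathway spread over much of the range. Tgfb1 read -0.86 and -1.05 and Nog -0.74 and -2.08. Grem1 and Bmpr1b failed on both arrays and Inhba on 1.

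In the Hedgehog pathway 8 of 12 genes were above background (66.7%, near the 62.3% of all genes), and no ligand was on both arrays. The signal transducer Smo read 4.90 and 4.82. Gas1 and Boc, co-receptors, read 2.82 and 2.74, and 1.30 and 1.43, the latter with a shared-run probe. The effectors Gli3, Gli1 and Gli2 read 2.64 and 2.52, 1.03 and 1.08, and -2.26 and -1.80, and the decoy Hhip read -1.07 and -0.61. The ligands Shh and Dhh were not well above background on either array, and Ihh failed on 1. Ptch1, the main receptor and a target of the pathway, failed with both of its probes on both arrays.

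Most complement and chemokine genes were measurable. Of 16 complement genes 15 were above background, with a median percentile of 94.7. C3, the central component, read 10.19 and 10.02, with its other probe close at a mean of 9.72. Serping1, the inhibitor of C1, read 9.45 and 9.35, and C4b and C1s1 read 8.02 and 8.23, and 7.24 and 7.14. Hc, which encodes C5, failed on 1 array, and Cfd and C6 were the lowest, C6 at -2.56 and -2.09. Of 19 chemokines and cytokines 17 were above background. The monocyte attractants Ccl2 and Ccl7 read 8.31 and 8.42, and 7.26 and 7.49, and the neutrophil attractant Cxcl1 read 7.59 and 7.17. Il6 read 6.61 and 6.51. The lowest that passed were Cxcl5 at -3.17 and -2.50 and Cx3cl1 at -3.33 and -3.24. Il1b, a product of activated myeloid cells, was not well above background on either array, and Tnf failed on 1. All 9 MHC class I genes were above background, H2-D1 at 7.56 and 7.71, B2m at 7.33 and 7.11, H2-K1 at 7.11 and 7.24, H2-T23 at 6.62 and 6.76, and the lowest, the peptide transporter Tap1, at 0.08 and 0.63. The other 4, Tapbp, Tap2, Psmb8 and Psmb9, lay between.

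Hox genes, which record the position of a tissue along the body axis, were measurable for 21 of 39, a share of 53.8% against 62.3% of all genes. The C cluster gave the brightest members, Hoxc6 at 3.46 and 3.26, Hoxc9 at 2.94 and 2.71 and Hoxc4 at 1.62 and 1.55, and Hoxa7 followed at 1.49 and 1.17. By cluster 7 of 11 Hoxa, 6 of 10 Hoxb, 7 of 9 Hoxc and 1 of 9 Hoxd genes were above background. The single Hoxd gene was Hoxd8, at -0.16 and -0.15. By position within the clusters, 11 of 15 genes of paralogs 4 to 8 and 4 of 7 of paralogs 9 to 10 passed, but 1 of 9 of paralogs 11 to 13, which was Hoxc11 at -2.68 and -2.36. The lowest that passed were Hoxb5 at -2.87 and -3.05 and Hoxa2 at -3.49 and -3.38. Failing on both arrays were Hoxa11, Hoxa13, Hoxb1, Hoxc12, Hoxc13, Hoxd1, Hoxd3, Hoxd10, Hoxd11, Hoxd12 and Hoxd13. Failing on 1 were Hoxa4, Hoxa6, Hoxb8, Hoxb9, Hoxb13, Hoxd4 and Hoxd9.

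**Figure D3:**
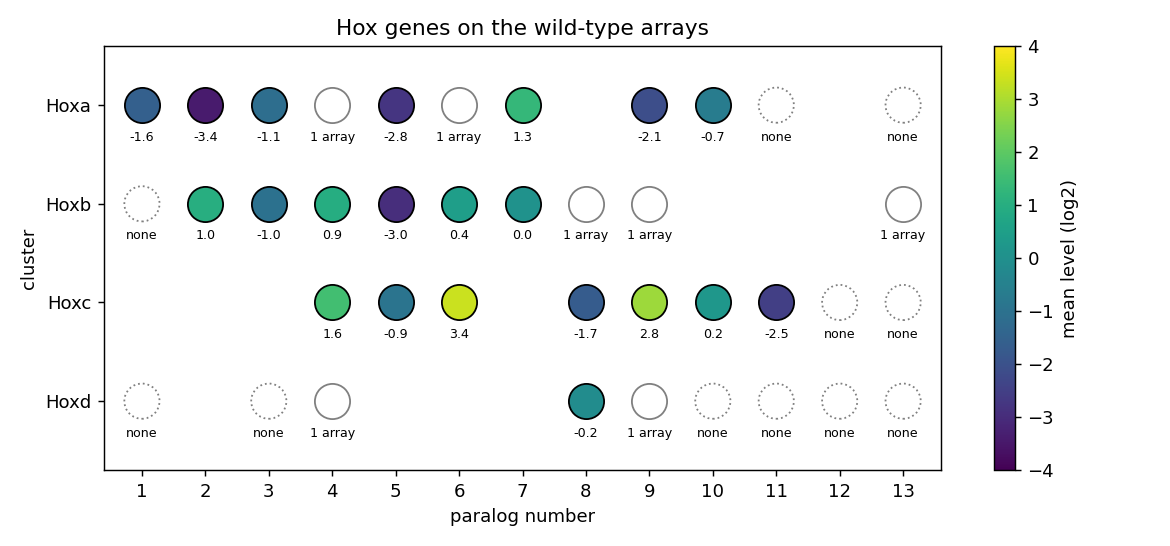
Hox genes by cluster (rows) and paralog number (columns). Filled circles were above background on both wild-type arrays and carry the mean level (log2, colour and number), open circles were above background on 1 array or on none; Hoxc6 is the brightest, Hoxd holds 1 filled circle and paralogs 11 to 13 hold 1.

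Other factors of mesenchymal identity and position were mostly present, 18 of 22. Prrx1, a homeobox gene of limb and body wall mesenchyme, read 4.88 and 4.72, Prrx2 read 3.79 and 3.83, and Osr1 read 3.44 and 3.59. Twist2 and Twist1 read 3.30 and 3.25, and 2.58 and 2.41. Tbx15, a T-box gene with high levels in subcutaneous fat, read 2.45 and 2.49, and Tbx5, a gene of the forelimb and heart fields, read 1.66 and 1.73. Tbx4, its hindlimb counterpart, was not well above background on either array, and neither was Hand2. Pitx1, which also belongs to the hindlimb, read 0.27 and 0.07. Wt1, a marker of visceral fat and mesothelium, was near the floor at -3.27 and -2.61, beside En1 at -3.05 and -2.77, and Tcf21 and Heyl failed on 1 array.

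Nuclear receptors, which bind steroid and lipid hormones, were above background in 25 of 31 cases. Nr4a1, an early response gene, read 6.59 and 6.61, and the thyroid hormone receptor Thra read 5.35 and 5.31. The glucocorticoid receptor Nr3c1 read 4.99 and 5.03, and Rarg, a retinoic acid receptor, read 4.39 and 5.12. The estrogen receptor Esr1 read 1.80 and 2.42. Vdr and the mineralocorticoid receptor Nr3c2 failed on 1 array, and Pgr, Nr0b1, Hnf4a and Nr4a3 failed on both. In retinoid and steroid metabolism 12 of 17 genes passed (70.6%, against 62.3% of all genes). Aldh1a3 and Aldh1a1, which make retinoic acid, read 5.18 and 4.68, and 3.95 and 3.69. Cyp26b1, which degrades retinoic acid, read 1.67 and 3.77. Hsd11b1, which regenerates active glucocorticoid, read 3.43 and 3.65. Cyp19a1 (aromatase) and Stra6 failed on both arrays, and Aldh1a2, Hsd11b2 and Crabp1 failed on 1.

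Imprinted genes were measurable in 13 of 19 cases (68.4%, against 62.3% of all genes). The noncoding RNA Meg3 led at 6.66 and 7.26, with all 3 of its probes above background. Plagl1 read 4.77 and 4.62, Sgce 4.55 and 4.55, and Ndn 4.00 and 3.96. H19 read 3.85 and 3.69 while Igf2, its neighbour on the chromosome, was not well above background. The lowest were Dio3, at -1.65 and -1.26, and Nnat. Rtl1 and Usp29 failed on both arrays, and Dlk1, Zim1 and Peg10 on 1. Of the sex-linked genes the Y-linked Ddx3y and Eif2s3y read 2.24 and 2.75, and 1.27 and 1.18, and both probes of the X-linked Xist failed on both arrays, in samples labelled male. Uty was faint, at -2.52 and -2.28, and Kdm5d failed on 1 array.

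Immediate early genes, which respond within minutes to handling, injury or growth factors, were bright. Of 23 listed, 22 were above background, with a median percentile of 94.8, and 13 lay above the 90th percentile. Jun read 8.54 and 7.95, Egr1 8.24 and 8.08, and Socs3 7.90 and 8.19. Fos and Fosb read 7.31 and 6.92, and 7.65 and 7.74. The lowest were Egr2 at 2.10 and 1.88 and Fosl1 at 1.49 and 2.18, and Egr3 was not well above background. All 12 heat shock genes were above background, with Hspa8 at 8.88 and 8.60, Hsp90ab1 at 7.51 and 7.61, Dnajb1 at 7.18 and 7.35, and the inducible Hspa1a, the lowest, at 2.80 and 3.47. Of 18 chaperones and stress genes of the endoplasmic reticulum all 18 passed, led by Hspa5 at 8.13 and 8.31 and Atf4 at 8.22 and 8.18, with Ero1a lowest at -2.31 and -2.04. The part of sorting and handling in these levels was not tested.

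Proliferation genes sat lower. Of 24 genes of mitosis and replication 21 were above background, with a median percentile of 38.1. Pcna, the clamp of DNA replication, read 3.95 and 3.68, and Mcm4 read 3.11 and 2.65. Mki67, the marker of cycling cells, read 1.03 and 0.64, with both probes above background. Top2a and Tyms were the lowest, at -1.82 and -2.01, and at -2.66 and -2.21. Aurkb and Ccne2 failed on both arrays and Bub1 on 1. Among D cyclins and cell cycle inhibitors 12 of 13 passed: Ccnd3 read 5.66 and 5.51, Cdkn1a, the inhibitor p21, 3.85 and 3.95, and Cdkn1c, the inhibitor p57, 3.58 and 3.21. Cdkn2a, whose products mark senescent cells, was not well above background with either probe.

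Genes of the general machinery were mostly measurable and often bright. Of 85 cytosolic ribosomal protein genes 83 were above background, with a median percentile of 99, and 79 lay above the 90th percentile. Rps14 read 9.67 and 9.38, and the 2 that failed on both arrays were Rpl10l and Rpl3l, which belong to testis and striated muscle. Of 81 nuclear-encoded subunits of oxidative phosphorylation 78 passed, with a median percentile of 91.2. Cox6a1 led at 8.09 and 8.01. The exceptions were again the isoforms of other tissues: Cox7b2 and Cox8c failed on both arrays and Cox6a2, the muscle form, on 1. Of 78 mitochondrial ribosomal proteins 77 passed, with a lower median percentile of 68.6 and Mrpl21 the exception. Housekeeping genes numbered 20 of 20, from Tpt1 at 10.06 and 9.80 to the basal transcription factor Tbp at 0.17 and 0.00. Of 10 apolipoproteins and lipid carriers 9 passed, with a median percentile of 94.9. Gpx3, the secreted glutathione peroxidase, read 7.13 and 7.38, Apod 6.86 and 6.81, Psap 6.23 and 6.12 and Npc2 5.72 and 5.77. The lowest were Apoc1 at 1.40 and 1.29 and Fabp3 at -0.54 and -0.92, and Ptgds was not well above background on either array.

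Genes of other cell types were checked because a sort can carry them along. Of 12 pan-leukocyte genes 4 were above background, with a median percentile of 4.68: Cd37 read -1.50 and -1.58, Cd52 -1.67 and -3.85, Coro1a -3.02 and -2.80, and Cd48 -3.13 and -2.90. Ptprc (CD45), the common antigen of blood cells, read -4.52 and -4.56 and passed on array 2 alone. Laptm5, Spi1, Cd53, Ikzf1 and Lcp1 failed on both arrays, Rac2 failed on 1, and Vav1 passed on each array with a different probe. Of 18 macrophage genes 10 passed (55.6%, against 62.3% of all genes), with a median percentile of 10.1. Cd74 read -2.01 and -2.21, C1qa -1.14 and -3.40, Pf4 -2.50 and -2.91, and Tyrobp, the lowest, -3.04 and -4.47. Lyz2, Adgre1, Cd163, Fcgr3 and Ms4a7 failed on both arrays, and Mrc1, C1qc and Cd68 failed on 1. The highest macrophage values rest on single probes. Itgam read 5.56 and 5.60 with a probe that opens with a CA repeat, and the capitals mark a 16-base run that probes of 105 names share.
Itgam, chr7:135261755-135261814, plus strand: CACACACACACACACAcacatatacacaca
Its other 2 probes read -3.04 and -3.24, and -4.18 and -4.44. Csf1r read 3.11 and 2.76 with 1 probe, -0.16 and -0.04 with another and -1.28 and -1.43 with the third.

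Endothelial genes were above background in 9 of 18 cases (50%, against 62.3% of all genes), with a median percentile of 14.3. Pecam1 (CD31), a surface antigen of endothelial cells, read -1.68 and -1.82, Vwf -2.19 and -3.00, and Ptprb -2.88 and -2.59. Emcn, Sox17, Sox18 and Erg failed on both arrays, and Cdh5, Flt1, Tie1, Cldn5 and Robo4 failed on 1. The 3 that stood apart were Kdr, Tek and Eng. Kdr read 3.72 and 2.95 with 1 probe and -2.08 and -1.98 with the other, Tek read 3.04 and 3.18 with its only probe, and Eng, which is also listed as a progenitor antigen, read 2.70 and 2.72.

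Mural, muscle and nerve sheath genes gave a mixed picture. Of 14 smooth muscle and pericyte genes 11 passed: Smtn read 4.13 and 4.2, and Mcam read 3.36 and 3.19 with a probe that holds the same CA run as that of Itgam, its other probe failing, while Acta2, the smooth muscle actin, read -1.90 and -1.97, Cspg4 (NG2) -1.42 and -1.33, Des -2.22 and -2.09, and Myh11 -2.92 and -4.50. Rgs5, Cnn1 and Lmod1 failed on both arrays. Of 13 skeletal muscle genes 2 passed, Tnnt3 at 0.10 and 0.41 and Des, while Ckm, Myh1, Myh2, Myh4, Myod1, Myf5 and Pax7 failed on both arrays and Acta1, Mb, Ttn and Mylpf on 1. Among 11 Schwann cell genes 7 passed (63.6%, near the 62.3% of all genes). Pmp22, which fibroblasts also make, read 6.07 and 5.74, and Mbp read 2.43 and 2.41 with the brightest of 3 probes, the other 2 lying below 0. S100b read 1.49 and 1.09, Ngfr -1.95 and -0.69, Prx -1.93 and -2.08, and Ncmap -2.86 and -3.32. Cdh19 failed on both arrays, and Sox10 and Gfra3 on 1.

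Most B cell, red cell, epithelial and mesothelial genes failed the flag, while the T cell list passed at 50%, against 62.3% of all genes. Of 10 T cell genes 5 passed: Cd3e read 2.45 and 3.34 with its only probe, Cd4 2.02 and 1.83 with 1 of 2 probes, Cd2 -1.94 and -2.36, Lck -2.91 and -2.51, and Cd5 -3.25 and -3.04. Cd3d and Cd3g, whose products form 1 receptor with that of Cd3e, failed on both arrays, as did Cd8a, Il7r and Tcf7. Of 8 B cell genes Cd22 passed at -1.15 and -0.65, with a shared-run probe whose companion failed, and Cd79a at -2.14 and -1.36, while Ms4a1, Pax5, Cd79b, Blk and Vpreb3 failed. Of 8 red cell genes the globins Hba-a1 and Hbb-bt passed at 1.77 and 0.73, and 0.10 and -1.17, with Epor at -1.38 and -1.05, and Alas2 and Ahsp failed on both arrays, Slc4a1 and Klf1 on 1. Of 12 epithelial genes Trp63, Cldn3 and Krt19 passed, at 2.71 and 2.29, 2.20 and 2.36, and 1.83 and 1.93. Trp63 did so with 1 of 4 probes, one that holds a run shared by at least 5 names. Epcam, Cdh1, Krt8, Krt18, Krt15, Cldn4 and Csn2 failed on both arrays, and Krt5 and Krt14 on 1. Of 8 mesothelial genes Krt19 and Wt1 passed, and Msln, Upk3b, Upk1b, Lrrn4, Muc16 and Gpm6a failed. The part of such cells in the matrix, complement or chemokine levels above was not tested.

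Sensory receptor genes and genes of distant organs were read beside these lists, although a few receptors of the olfactory family are also known outside the nose. Of 1085 olfactory receptors 40 were marked above background on both arrays (3.69%), and of 259 vomeronasal receptors 15 (5.79%), with median percentiles of 8.52 and 8.57. The brightest olfactory receptor signals were from Olfr373 at 4.08 and 3.73, whose other probe failed, and Olfr544 at 3.88 and 3.12, with 1 probe. Of 19 genes restricted to distant organs 6 passed, among them Syn1 at -0.42 and -0.43, Ins2 at -1.68 and -1.70 and Prm2 at -1.60 and -1.89. Nanog passed at 0.55 and 0.17 with a shared-run probe while its other probe failed. Alb, Gcg, Gfap, Sftpc and Neurod1 were among those that failed on both arrays. The pan-leukocyte, endothelial and macrophage lists passed at 33.3%, 50% and 55.6%, against 31.6% of the distant-organ genes and 62.3% of all genes. Their medians over the genes that passed were 4.68, 14.3 and 10.1, against 14.6 for the distant-organ genes.

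The 30 genes with the highest signals mixed matrix and secreted proteins, genes of translation and other general cell functions, and names whose other probes read far lower. In the first group were Timp2, Col1a2, Pi16, C3, Sparc, Dcn, Fstl1, Gsn, Fn1, Igfbp6 and Serping1, with the surface antigen Ly6c1 at 9.63 and 9.34. In the second were Rn18s, the 18S ribosomal RNA, at 10.32 and 9.99, Tpt1, Rps14, Rn4.5s, Ubb, Actb, Rpl37a and the ferritin chain Ftl1. In the third were Kctd14, F10, Slc10a1, Elk1, Ttc38, Med16, Milr1 and Zfp628, while Exosc2 had a single probe at 9.97 and 9.66. Kctd14 read 10.32 and 9.98 with 1 probe while its other 2 were not above background on both arrays. F10, coagulation factor X, a product of the liver, read 10.24 and 9.94 with 1 probe and failed with the other, and so did Slc10a1, a bile acid transporter of the liver, at 10.10 and 9.90. Elk1 read 9.99 and 9.68 with 1 probe and -3.27 and -2.50 with the other. Of the 17 genes among the 30 with several probes, 10 had another probe more than 3 lower, Sparc of the first group among them.

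Some of these bright probes share short runs of sequence, those of Kctd14, F10, Elk1 and Med16 among them. The 12-base runs found in the most probes among the 200 brightest were searched for as spelled and, on the other strand, as their reverse complement. The run ACAGCCAGGGCT occurred in 6 of the 200, and each is shown with the run in capitals and the probe's position on mm9.
Kctd14, chr7:104606896-104606955, plus strand: agttccaggACAGCCAGGGCTatacaaaaa
F10, chr8:13056119-13056178, plus strand: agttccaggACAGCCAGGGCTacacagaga
Elk1, chrX:20510521-20510580, minus strand: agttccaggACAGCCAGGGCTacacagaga
Med16, chr10:79357669-79357728, minus strand: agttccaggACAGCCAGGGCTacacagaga
Cxcl11, chr5:92788567-92788626, minus strand: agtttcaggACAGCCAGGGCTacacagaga
Ndor1, chr2:25100377-25100436, minus strand: tccaggaggACAGCCAGGGCTacacagaga
The flanking bases are shared as well, so 3 of the 6 are identical over all 30 bases. Over the whole array 9 probes of 9 names held this run (0.0162% of probes), all 9 above background, with a median level of 9.25 and a range from 0.28 to 10.15. Its reverse complement occurred in 6 probes, also all above background, with a median of 2.14 and a range from -1.58 to 3.31. Because the run was picked from the 200 brightest probes, 6 of the 9 were bright by that choice. The medians of the 2 strands therefore cannot be compared.

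The run AAGACAGCTACA occurred in 10 of the 200 brightest probes, 3 of which named genes are shown.
Fam177a2, chr12:56243005-56243064, plus strand: tggtgtctgAAGACAGCTACAgtgttctta
Synrg, chr11:83855517-83855576, plus strand: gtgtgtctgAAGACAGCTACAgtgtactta
Medag, chr5:150234212-150234271, plus strand: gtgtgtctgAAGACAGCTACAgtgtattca
In all 12 probes of 12 names held it, 10 of them bright by the same choice of run. Their median level was 9.04, with a range from 2.13 to 9.48. The reverse complement of the run occurred in 2 probes, 1 of them above background. Such letters are familiar from the B1 and B2 short interspersed repeats, which lie in many mouse transcripts, but no repeat annotation was used here. Medag, a gene of fat cell formation, read 9.28 and 9.0 with a probe that holds this run, and the source of that signal was not tested. In all, 1274 probes held a 16-base run found in probes of at least 5 names. Of these 873 (68.5%) were above background against 44.0% of all probes, with a median level of 3.38 against 0.35. Among the 30 genes with the highest signals 6 entered by such a probe: Kctd14, F10, Slc10a1, Elk1, Ttc38 and Med16. With all shared-run probes left out, a choice made after the data were seen, the other 24 of the 30 genes remained. That follows from the choice, because their levels did not change. With the median over a gene's probes 19 of the 30 remained.

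**Figure D4:**
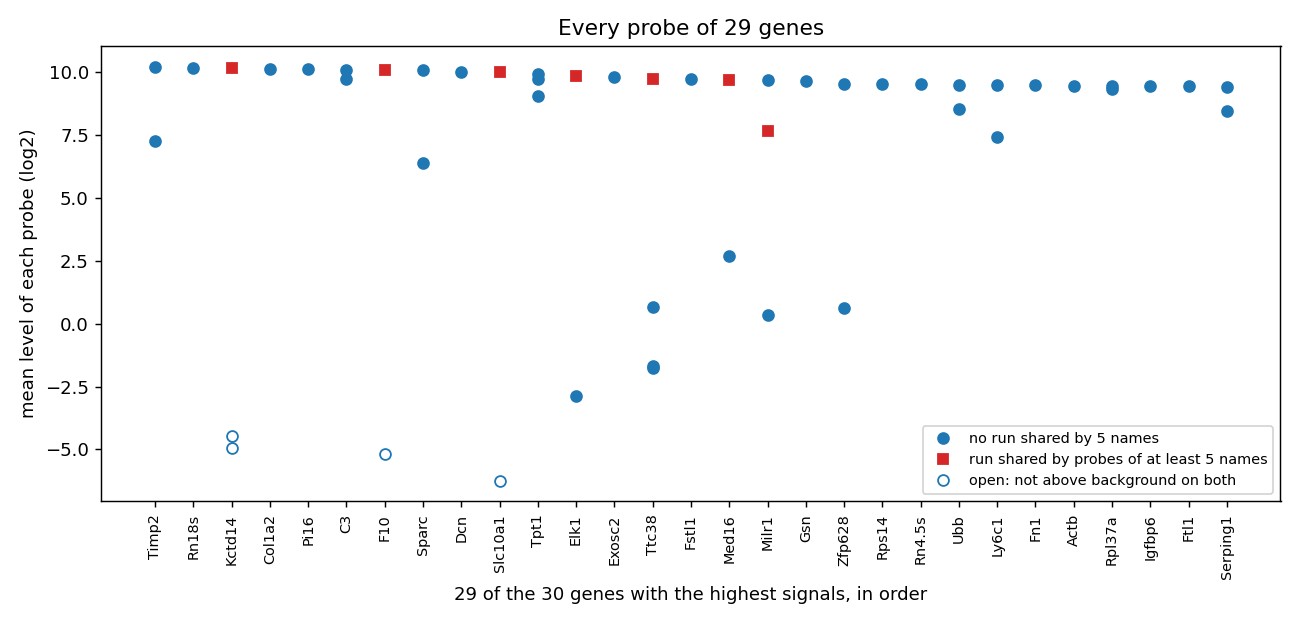
Mean level of every probe (y axis, log2) of 29 of the 30 genes with the highest signals (x axis, in order of the brightest probe). Squares hold a 16-base run found in probes of at least 5 names and open points were not above background on both wild-type arrays; Kctd14, F10, Slc10a1 and Elk1 each have a square near 10 and other probes below -2.

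Among the 8 widest ranges between probes above background were those of Elk1 at 12.7, Ttc38 at 11.5, Rpl6 at 11.3, Rpsa at 11, Gnas at 10.3, Ndor1 at 9.91 and Dnajc5 at 9.82. Rpl6 and Rpsa belong to families with many near-identical copies in the genome, so the source of a signal with their names is uncertain. The probes of a gene disagreed on its level far more than on its difference between the arrays, for which the median range over the same genes was 0.19.

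Among the 12238 genes above background on both arrays, few differed at least 2-fold between the 2 wild-type samples. A further 1700 genes passed on 1 array only, or on each with a different probe, and are not in these counts. The faintest marked probe lay at -3.60 on array 1 and -4.94 on array 2. A gene faint on array 1 could thus fail there, so the counts toward each array are not on an equal footing. On array 2, 64 genes were at least 2-fold higher (0.523%), and on array 1, 230 were (1.88%), of which 173 lay in the lowest of the 5 groups by level. Among the 10 furthest toward array 1 were Ndc80, Hrg, Wdr7, Prss27, Sh3tc1, Miox, Mogat2, Marchf10 and Rarres1. They read from -0.87 to 0.85 on array 1 and from -4.59 to -2.97 on array 2, where the brightest unmarked probe was at -4.49, and each rested on 1 probe above background. The 10 furthest toward array 2 were Tmem91, Pigt, Cdc42ep3, Mdfi, Cyp26b1, Prr7, Bbs10, Xlr4a, Dact2 and Insyn1. Tmem91 read 0.35 and 11.30 on a spot that was saturated on array 2, while its other probe read -2.97 and -3.42, so that the gene's probes opposed each other. Pigt, which anchors proteins to the membrane, read 3.62 and 6.47 with its only probe.

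Differences that several probes of a gene shared were fewer. Of 3276 genes with at least 2 probes above background, 3 were at least 2-fold higher on array 1 with every probe, and 5 on array 2. Hmox1, the heme oxygenase induced by oxidative stress and heme, read 7.57 and 4.69 with 1 probe and 4.08 and 1.82 with the other. Dbp, an output gene of the circadian clock, read 3.29 and 1.51, and 3.32 and 1.45. The third was Hcrtr1, an orexin receptor gene, at -2.29 and -4.56 with its brighter probe. Toward array 2 the list held F3, Insyn1, Il31ra, Mid1 and the noncoding RNA NEAT1, whose 5 probes differed by 1.04 to 1.26. By their brightest probe Hmox1, Dbp, F3, Insyn1 and NEAT1 stayed at least 2-fold apart with a median shift, quantile normalization or normexp correction, whereas with normexp Hcrtr1, Mid1 and Il31ra fell short, at differences of -0.96, 0.74 and 0.94.

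Some gene groups leaned to 1 array. Of all genes, 45.5% were higher on array 2, and 69.4%, 51.0% and 47.9% were with a median shift, quantile normalization and normexp, against which each count below is to be read. Of the 21 mitosis and replication genes 20 were higher on array 1, with a median difference of -0.47. Plk1, a mitotic kinase, read 0.74 and -0.51, Ccnb2 1.77 and 1.17, and Mki67 1.03 and 0.64. The count was 19 with a median shift, which moves every difference up by the same amount and the median of all genes from -0.03 to 0.12, 20 with quantile normalization and 21 with normexp correction. Of 13 clock genes 10 were higher on array 1, and 9 with each of the other 3 scales: Tef read 4.45 and 3.58, Nr1d2 1.62 and 0.88, and Hlf -2.0 and -3.56, while Arntl, which peaks at the opposite time of day to Dbp, read 2.15 and 2.61. Bhlhe40 and Nfil3 were also higher on array 2. Ciart failed on both arrays, and Npas2, Cry1 and Bhlhe41 failed on 1. Cytosolic ribosomal protein genes were higher on array 1 in 80 of 83 cases, with a median difference of -0.24, which was -0.09 with a median shift, -0.08 with quantile normalization and -0.15 with normexp. The counts were 70, 70 and 80 of 83 on those scales. A lean was not particular to these groups. By the levels used above, 73 of 78 oxidative phosphorylation genes, 12 of 16 Dpp4-positive genes and 11 of 14 elastic fibre genes were higher on array 1. Toward array 2 leaned 13 of 17 chemokines and cytokines and 13 of 18 chaperones and stress genes of the endoplasmic reticulum. These counts moved with the scale. With a median shift, quantile normalization and normexp, 9, 7 and 7 of 14 elastic fibre genes were higher on array 2, so their lean to array 1 was lost. The same counts were 29, 9 and 11 of 78 for oxidative phosphorylation and 6, 5 and 5 of 16 for Dpp4-positive genes. They were 14, 13 and 10 of 17 for chemokines and cytokines, and 18, 14 and 15 of 18 for the chaperones and stress genes. The time of day of sampling is not given in the labels, and its part, like that of the hybridisation, was not tested.

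Promoters were set beside these levels with RefSeq windows on GRCm38.p6 that run from 250 bases before to 50 bases after a start site, matched by symbol for 15407 genes. The 5744 genes not above background on both arrays held a median of 4.5 CG pairs per window, and 43.2% of them held 3 or fewer. Measurable genes held 16.5 below the 25th percentile of signal, 20 to 22 in the bins up to the 99th percentile and 19.5 in the brightest 1%. Olfactory receptor windows, 910 of them, held a median of 1, as did 234 vomeronasal receptor windows. Few of these receptors passed the flag, so the group not above background holds many of their windows. Its CG pairs without them were not analysed here. The motif TATAAA, searched on the coding strand between 45 and 15 bases before the start, was in 3.08% of all windows. It was in 5.0% of the genes not above background, in 1.21% of the genes between the 50th and 75th percentile, and in 3.08% of those between the 90th and 99th. The group not above background held 287 such genes, and the measurable genes below the 25th percentile held 70. The other bins rest on small counts, with 35 such genes between the 25th and 50th percentile and 30 between the 50th and 75th. There were 22 between the 75th and 90th, 27 between the 90th and 99th and 3 above.

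Bright genes of the lists above with this motif are shown in windows of 30 bases, with the motif in capitals and positions on GRCm38.p6.
Vim, chr2:13574267-13574296, plus strand: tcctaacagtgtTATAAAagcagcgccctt
Fos, chr12:85473845-85473874, plus strand: tcacagcgcttcTATAAAggcgccagctga
Meg3, chr12:109540959-109540988, plus strand: tctgcgcctttaTATAAAccccacccagcc
Adamts1, chr16:85803128-85803157, minus strand: ctcctatgtggcTATAAAggggcggccggg
Postn, chr3:54361069-54361098, plus strand: agcccagagctaTATAAActcagctctcca
Ccn1, chr3:145649993-145650022, minus strand: ctaggcaggcatTATAAAgggcgggctccc
The motif starts 32 bases before the start site in Adamts1 and Vim, 33 in Fos, 26 in Postn and 25 in Meg3 and Ccn1. These are matches of letters, and binding of the general factors there was not measured. Complement genes, with bright signals, had windows poor in CG pairs, a median of 3 over 10 genes, as did small leucine-rich proteoglycans, with 4 over 11. Clock genes held 30 over 15 genes and the cytosolic ribosomal protein genes 22 over 63.

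**Figure D5:**
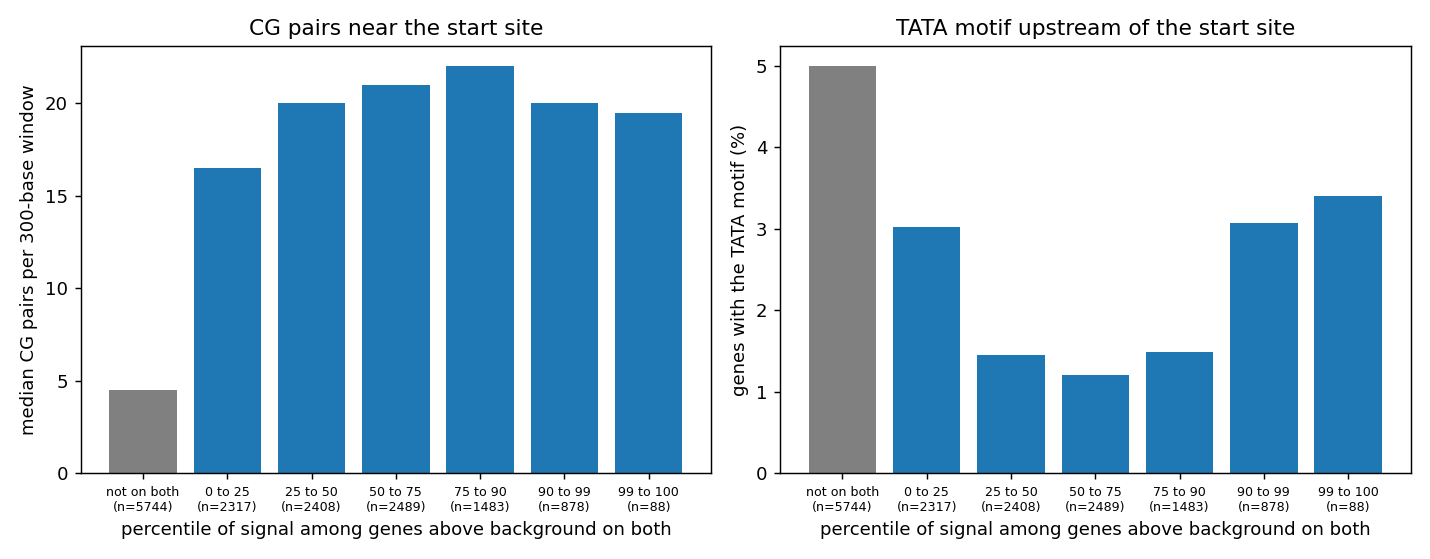
Left, the median number of CG pairs in the 300-base window of each gene; right, the percent of genes with the TATA motif upstream. Bars are genes not above background on both wild-type arrays (grey) and measurable genes by percentile of signal (x axis, with the number of genes); CG pairs are 4.5 in the grey bar and 16.5 to 22 in the others, and the TATA motif is least frequent, at 1.21%, between the 50th and 75th percentile.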

How the data were processed

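RNA of the sorted cells was labelled with Cy3 and hybridised to Agilent arrays, per the labels' protocols. The authors deposited scanner files written by Feature Extraction 10.7.3.1 with coordinates on mm9, per the file headers, in which the processed intensity is background-subtracted and detrended. The deposited series table of log2 values was used for 1 alternative. Outlier spots and controls were left out, replicate spots were averaged as log2 values, and each array's 75th percentile over 59305 non-control spots (signals of 239 and 333) was subtracted. RefSeq accessions named 26582 probes. A gene entered by its brightest probe above background on both arrays. Scripts ran in Python 3.11.15, R 4.3.3 and limma 3.58.1, and were tested on simulated data. With 2 arrays of 1 group no test was run. Depth is not a count here, and the number of arrays limits precision. The genes and lists were chosen with earlier results of these data known. Named were the markers, Adamts1, the 30 brightest genes, members of lists of up to 12 genes, the 4 highest, 2 lowest and failing members of larger lists (not all printed), the 10 largest differences each way and the 8 widest probe ranges, with others picked after their values were seen. Some genes that this rule would name are not reported here.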

Additional observations from a re-analysis of the deposited data

How the results depend on the processing

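No paired analysis was possible because the results come from no test. Levels depend on the reference: with a median shift Pdgfra, Cd34, Ly6a and Dcn were at 9.17, 12.57, 12.02 and 13.90, with the 75th percentile over probes above background at 2.68, 6.08, 5.52 and 7.41, and with normexp correction at 4.97, 8.49, 7.79 and 9.57. With the median over its probes Cd34 was at 5.98. Genes at least 2-fold higher on array 2 numbered 106 with a median shift and 33 with normexp, which gave 91 toward array 1. With the laxer flag for signals significantly above background, 15 endothelial genes, 8 pan-leukocyte genes and 149 olfactory receptors passed. With either array alone, pan-leukocyte genes numbered 5 to 7 and olfactory receptors 82 to 107. The median percentile of the progenitor antigens was 91.7 with the median over probes, 88.7 with normexp, 90.01 without shared-run probes, and 90.1 to 90.3 with 1 array. For mature adipocyte genes it was 48.5 with the median over probes and 27.9 to 30.7 with 1 array, for collagens 96.7 and 97.5 to 98.0. With 1 array it was 15.6 to 20.4 for endothelial genes, 6.98 to 15.5 for pan-leukocyte genes and 7.62 to 12 for olfactory receptors. Of the 30 brightest genes 19 remained with the median over probes. A single array and the laxer flag let more genes pass by construction, and the cause of the other changes was not tested. The choice of leaving out shared-run probes was made after seeing the data. Across 53 lists the median percentile moved by at most 5 points for 53 with normexp, 52 without shared-run probes, 43 with the median over probes, 40 without replicate 1 and 46 without replicate 2, with shifts from -15.9 to 11.1 points without replicate 1. Signal over background limits what the faint lists can show.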
